A study of Homo sapiens with 8 samples.

Results

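KLHL23 was silenced in Hep-3B cells, an established human hepatoma line, and the transcriptome of the silenced cells was compared with that of control cells. The comparison rests on 4 of the 8 arrays of the study, 2 knockdown arrays (shKLHL23) and 2 control arrays (shLuc), chosen by their labels, and covers all 54675 probe sets of the array. The other 4 arrays hold the same pair of conditions in Huh7, a second hepatoma line. Both groups were Hep-3B cells grown with 10% serum, transduced with shRNA lentivirus at a multiplicity of infection of 2 and selected with puromycin, added after 48 hours. An shRNA is a hairpin RNA that the cell processes into a guide against a matching transcript. The knockdown virus targeted KLHL23, and the control virus targeted luciferase, which human cells do not have. The labels give 1 name for the KLHL23 hairpin, so loss of KLHL23 and effects of that hairpin on other transcripts cannot be told apart. They do not say whether the selected cells were a pool or a clone. Nor do they say whether the arrays numbered 1 and 3 in each group had cultures of their own, so p-values reflect the spread of these samples alone, and that spread may be technical.

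KLHL23 belongs to the Kelch-like proteins, many of which hold a substrate by their Kelch repeats and bring it to the ubiquitin ligase built on cullin 3. The title of the study places it in epithelial-mesenchymal transition (EMT), in which epithelial cells lose their junctions and become motile. Hepatocytes, from which hepatomas arise, make cholesterol, plasma proteins and bile acids, oxidise drugs through cytochromes P450, and store metal in metallothioneins, small cysteine-rich proteins that bind zinc and copper. Metallothionein genes are switched on through metal response elements bound by the zinc-sensing factor MTF1, and genes of the oxygen response through hypoxia response elements bound by hypoxia-inducible factor (HIF).

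The deposited values are log2 expression levels, so a difference of 1 is a change of 2-fold. Each gene was read from its brightest probe set, which gave 19775 genes. Hepatoma markers were at the top of the scale in all 4 arrays: ALB, which encodes albumin, lay between 13.53 and 13.62, and the fetal liver protein AFP between 12.35 and 12.72. Replicate arrays correlated at 0.998 in control and 0.996 in knockdown cells over genes, and the SD of their difference was 0.157 and 0.222. As a sign of RNA integrity, the level of the 3′ probe set of ACTB exceeded that of the 5′ one by 0.442 and 0.537 in control cells, and by 0.737 and 0.753 in knockdown cells. For GAPDH the excess was 0.117 and 0.12 against 0.223 and 0.236. Both measures moved with the groups, and their part in the results was not tested.

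The promoters of 3 metallothionein genes are shown because metallothioneins were the group with the largest rises. They are the 250 bases before the RefSeq start of each gene in GRCh38.p14, and capitals mark the core of the metal response element, TGCACNC or TGCGCNC, on either strand.
MT2A (chr16:56608334-56608583, plus strand): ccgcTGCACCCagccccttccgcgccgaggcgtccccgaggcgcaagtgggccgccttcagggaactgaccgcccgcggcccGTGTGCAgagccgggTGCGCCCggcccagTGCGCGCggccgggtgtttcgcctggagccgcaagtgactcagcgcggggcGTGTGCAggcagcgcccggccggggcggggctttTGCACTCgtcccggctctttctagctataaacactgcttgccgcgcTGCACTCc
MT1X (chr16:56682220-56682469, plus strand): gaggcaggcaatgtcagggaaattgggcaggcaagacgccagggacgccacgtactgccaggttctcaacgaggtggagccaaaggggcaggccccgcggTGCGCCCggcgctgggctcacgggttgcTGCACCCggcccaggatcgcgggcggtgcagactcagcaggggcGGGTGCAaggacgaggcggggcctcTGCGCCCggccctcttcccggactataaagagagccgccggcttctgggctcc
MT1H (chr16:56669564-56669813, plus strand): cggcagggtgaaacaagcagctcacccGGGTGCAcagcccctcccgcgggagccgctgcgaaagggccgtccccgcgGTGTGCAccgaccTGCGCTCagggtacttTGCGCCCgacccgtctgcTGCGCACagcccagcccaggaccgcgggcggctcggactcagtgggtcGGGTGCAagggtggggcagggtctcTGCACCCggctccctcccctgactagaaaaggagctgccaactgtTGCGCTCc
The core occurred 7 times in the promoter of MT2A, 4 times in that of MT1X and 8 times in that of MT1H, with overlapping matches counted separately. Of all 35116 RefSeq promoters of this length, 24.8% held at least 1 match and 1.58% held 3 or more. Of 10 promoters found for 8 genes of the metallothionein and zinc list, 5 held at least 1 and 4 held 3 or more. A match of these letters is a description of the sequence and not a bound site.

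Promoters of ANKRD37 and BHLHE40, a pair of genes of the oxygen response that lay lower in both knockdown arrays, are shown in the same way. Capitals mark ACGTG, the core of the hypoxia response element, on either strand.
ANKRD37 (chr4:185396591-185396840, plus strand): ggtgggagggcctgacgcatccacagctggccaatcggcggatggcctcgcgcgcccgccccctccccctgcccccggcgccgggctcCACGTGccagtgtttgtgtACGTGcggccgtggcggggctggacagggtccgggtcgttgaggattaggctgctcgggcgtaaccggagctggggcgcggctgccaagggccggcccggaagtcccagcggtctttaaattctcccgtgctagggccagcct
BHLHE40 (chr3:4979187-4979436, plus strand): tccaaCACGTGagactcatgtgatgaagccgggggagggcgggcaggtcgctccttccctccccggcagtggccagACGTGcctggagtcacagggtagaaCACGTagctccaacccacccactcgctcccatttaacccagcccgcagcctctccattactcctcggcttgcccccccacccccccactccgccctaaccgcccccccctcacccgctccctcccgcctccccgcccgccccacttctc
The core was found 3 times before ANKRD37 and 4 times before BHLHE40, where a CACGTG counts once on each strand. It occurred in 18.5% of all 35116 promoters, with 3 or more matches in 1.55%. For the 50 genes of the HIF target list with an entry, 38 of 80 promoters (47.5%) held it and 7 held 3 or more.

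KLHL23 itself was lower in both knockdown arrays, but unequally. The only probe set paired with KLHL23 alone read 7.81 and 7.84 in control arrays 1 and 3, and 7.21 and 6.15 in knockdown arrays 1 and 3. Knockdown array 1 therefore kept 65.5% of the control mean and knockdown array 3 kept 31.4%. By limma this difference of -1.14 (SE 0.27, 2 arrays per group) had an adjusted p of 0.0765, above the threshold of 0.05. A brighter probe set shared with the readthrough locus PHOSPHO2-KLHL23 read 8.82 and 8.89 in control cells, and 8.22 and 7.16 in knockdown cells, that is 64.4% and 30.7% of the control mean. Its difference was -1.17 (limma adjusted p = 0.0884). The other 2 probe sets of these loci were dim, with differences of -0.23 (limma adjusted p = 0.515) and 0.12 (limma adjusted p = 0.775). Leaving out knockdown array 1 gave -1.67 for KLHL23, and leaving out knockdown array 3 gave -0.61, each resting on a lone knockdown array.

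**Figure D1:**
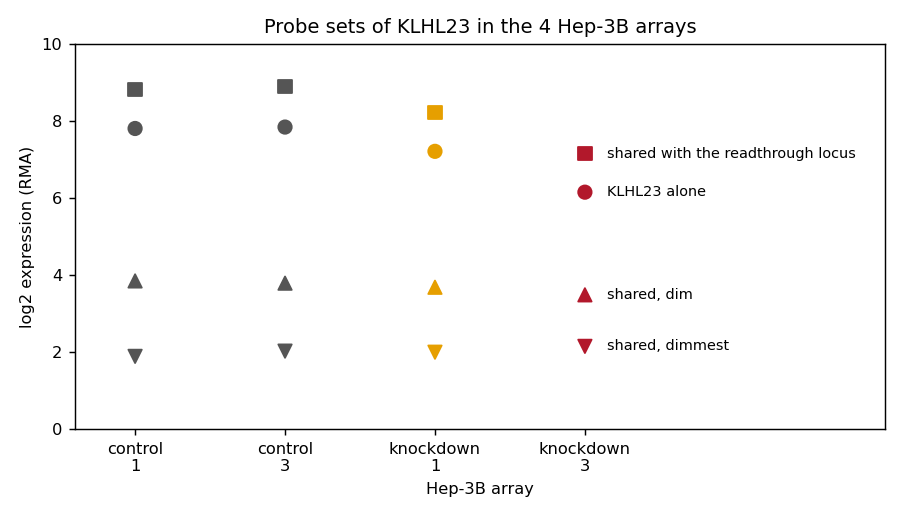
Log2 expression of the 4 probe sets of KLHL23 and its readthrough locus in each of the 4 Hep-3B arrays; each point is 1 array, grey for control and coloured for knockdown. Both bright probe sets lie lower in knockdown array 3 (6.15 and 7.16) than in knockdown array 1 (7.21 and 8.22), and both lie below the controls.

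Across the array 623 probe sets were called in Hep-3B at a limma adjusted p under 0.05, which is 1.14% of those tested, with 269 higher (0.492%) and 354 lower (0.647%). Of the 19775 genes 189 (0.956%) were called at their brightest probe set, 142 higher (0.718%) and 47 lower (0.238%), and 79 of them differed by at least 2-fold. The unadjusted limma p was under 0.05 for 8503 probe sets, and at the brightest probe sets for 3213 genes (16.2%), 1806 higher (9.13%) and 1407 lower (7.12%). The number of calls depends on single arrays. Without knockdown array 1 it was 796 genes and without knockdown array 3 it was 12, and the lists described here then kept called members only among the metallothioneins (6), steroid genes (2) and bile acid genes (1). It was 0 without either Hep-3B control array, and 46 without either Huh7 control array, since the lines share the estimate of spread. With the 4 Hep-3B arrays fitted alone no gene passed by limma, the smallest adjusted p over probe sets being 0.0542, and 9367 probe sets had an unadjusted p under 0.05.

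Metallothioneins were the group with the largest median difference. Of 13 measured genes of the metallothionein and zinc list 7 rose and 0 fell, the median difference of the list was 1.27, and the 7 were the metallothionein genes MT1E, MT1F, MT1G, MT1H, MT1M, MT1X and MT2A. The median over all genes was 0.02. MT1X read 10.19 and 10.09 in control arrays 1 and 3 and 11.57 and 12.05 in knockdown arrays 1 and 3. It rose by 1.67 (SE 0.15, n = 2 per group, limma adjusted p = 0.0064), 3.19-fold. MT2A, a broadly expressed metallothionein, read 10.98 and 10.90 in control arrays, against 11.98 and 12.43 in knockdown arrays, a rise of 1.27 (SE 0.14, limma adjusted p = 0.0103). In both genes each knockdown array stood above each control array, knockdown array 3 the higher.

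MT1M showed the largest difference of any called gene. Its control arrays read 2.66 and 2.58, under the lower quartiles of 3.08 and 3.10, and its knockdown arrays 5.57 and 6.75. The rise of 3.54 (SE 0.31, limma adjusted p = 0.0064) therefore starts from a level near the floor of the array, and its size is uncertain. MT1F read 9.14 and 9.06 against 10.73 and 11.36 and rose by 1.95, MT1G rose by 1.69, MT1H by 1.66 and MT1E by 1.65. Human metallothioneins are near-identical in sequence, so their probe sets can take signal from each other, and the order of their rises is uncertain for that reason. MT1HL1, a related locus outside the list and picked out after its values were seen, rose by 1.34. Without knockdown array 3 there were 6 called genes of the list, and without knockdown array 1 there were 7 higher and 1 lower.

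The other members of that list were not called at their brightest probe sets. The zinc-sensing regulator MTF1 stood at 0.15 (limma adjusted p = 0.577) and the zinc exporter SLC30A1, a known MTF1 target, at 0.37 (limma adjusted p = 0.141). MT3, the brain form, stood at 0.24. SLC30A10, a manganese exporter, read 8.55 and 8.53 in control cells, and 8.06 and 7.18 in knockdown cells, a difference of -0.92 that did not pass (limma adjusted p = 0.213). The zinc importer SLC39A10 stood at -0.72 (limma adjusted p = 0.101). SLC39A14, an importer of zinc and iron, stood at 0.05 at its brightest probe set, while a dimmer one was called lower.

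Enzymes of cholesterol synthesis were the second group with many rises. Of 20 measured genes of the sterol list, from 26 listed, 10 rose and 0 fell, and in 19 both knockdown arrays lay above both controls, a pattern found in 29.4% of all genes. The median difference was 0.86, at 0.60 in knockdown array 1 and 1.10 in knockdown array 3. HMGCS1, the enzyme that makes HMG-CoA at the head of the pathway, read 6.59 and 6.53 in control arrays, against 7.90 and 8.61 in knockdown arrays. It rose by 1.70 (SE 0.21, n = 2 per group, limma adjusted p = 0.0129). Its other probe set rose too, by 1.49. IDI1, which isomerises the isoprene unit, read 8.32 and 8.42 against 9.73 and 10.33 and rose by 1.65 (SE 0.20, limma adjusted p = 0.0125). For both genes knockdown array 3 was the higher, and the knockdown arrays did not overlap the controls.

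Later steps of the pathway also rose. SQLE, the squalene epoxidase that commits carbon to sterols, read 8.57 and 8.63 in control cells, and 9.62 and 10.10 in knockdown cells (1.26, limma adjusted p = 0.0157), and 3 of its 4 probe sets rose. LSS, which closes the sterol rings, rose by 1.21. MSMO1, the methylsterol oxidase, read 9.15 and 9.19 against 10.59 and 11.18 and rose by 1.71, the most of the list. SC5D (1.04), DHCR7 (0.88) and NSDHL (0.86), which act on the sterol nucleus, and ACAT2 (0.88), which makes acetoacetyl-CoA, rose as well. NPC1L1, a sterol uptake transporter of intestine and liver, rose by 0.79. ERG28, a scaffold of sterol enzymes outside the list that was picked out after its values were seen, rose by 0.95.

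The remaining 10 sterol genes did not pass. MVD (0.94, limma adjusted p = 0.0662), TM7SF2 (0.86, limma adjusted p = 0.0637) and FDPS (0.71, limma adjusted p = 0.0671) came closest. SREBF2, the transcription factor that drives the pathway, stood at 0.35, and INSIG1, its feedback inhibitor, read near the floor of the array and stood at 0.04. Without knockdown array 3 no sterol gene was called by limma, and without knockdown array 1 there were 13 higher and 0 lower.

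Fatty acid enzymes showed smaller differences. Of 15 measured genes 2 rose (13.3%, against 0.718% of all genes) and 0 fell, with a median difference of 0.31. The unadjusted limma p was under 0.05 for 8 higher and 0 lower (53.3%, against 16.2% of all genes). In 12 (80.0%) both knockdown arrays lay above both controls and in 1 below, against 29.4% and 23.5% of all genes. SCD, which desaturates fatty acids, read 10.87 and 10.90 in control arrays, against 11.38 and 11.63 in knockdown arrays (0.62, SE 0.12, limma adjusted p = 0.0448). FADS2, another desaturase, rose by 0.57 (limma adjusted p = 0.049). The synthase FASN, at 8.73 and 8.59 against 9.21 and 9.63, did not pass (0.76, limma adjusted p = 0.0663). Of 17 genes of fatty acid oxidation and ketogenesis 2 rose (11.8%), the fatty acid carrier FABP1 (1.06) and the peroxisomal enzyme EHHADH (0.78). Among the 17, 6 higher and 2 lower had an unadjusted limma p under 0.05 (47.1%). PLIN2, which coats lipid droplets, lay lower in both knockdown arrays without passing (-0.75, limma adjusted p = 0.0777). Without knockdown array 3 neither list had a called gene by limma.

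**Figure D2:**
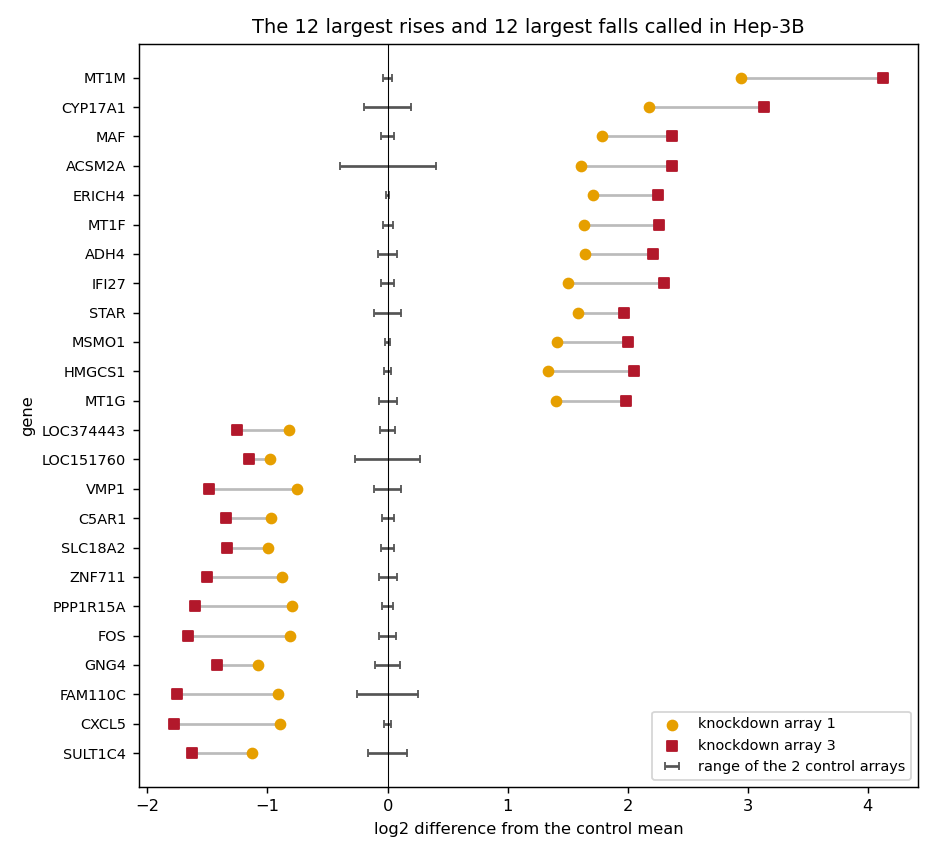
Log2 difference of each knockdown array from the control mean for the 12 largest rises and 12 largest falls among called genes; circles are knockdown array 1, squares knockdown array 3, and bars span the 2 control arrays around their mean. Every one of these 24 genes is further from control in array 3, and MT1M (3.54) and CYP17A1 (2.66) lead the rises.

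Genes of steroid and bile acid synthesis were called at a few steps only. In the steroid list 2 of 17 rose (11.8%) and in the bile acid list 1 of 16 (6.25%), against 0.718% of all genes. The unadjusted limma p was under 0.05 for 4 higher and 1 lower steroid genes (29.4%). It was under 0.05 for 4 higher and 2 lower bile acid genes (37.5%), against 16.2% of all genes. CYP17A1, the steroid 17-hydroxylase, read 4.48 and 4.09 in control arrays and 6.45 and 7.42 in knockdown arrays. It rose by 2.66 (SE 0.28, n = 2 per group, limma adjusted p = 0.00856), the second largest rise, while its other probe set, near the floor, stood at -0.01. STAR, which delivers cholesterol to the mitochondrion for steroid synthesis, read 5.93 and 5.70 against 7.40 and 7.79 and rose by 1.78 (SE 0.16, limma adjusted p = 0.0064). The other 15 measured genes of the steroid list did not pass. CYP11A1, the side-chain cleavage enzyme that follows STAR, stood at -0.05 with all 4 arrays between 3.22 and 3.57. CYP7A1, which catalyses the rate-limiting step from cholesterol to bile acids, read 2.63 and 2.55 in control cells, and 3.91 and 4.35 in knockdown cells, a rise of 1.54 (limma adjusted p = 0.00831) from a level below the lower quartile. It was the only gene of 16 called in the bile acid list, where CYP8B1 stood at 0.61 (limma adjusted p = 0.0554) and the bile acid conjugating enzyme BAAT at -0.72 (limma adjusted p = 0.11).

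Drug-metabolising enzymes that were called mostly rose. Of 31 measured P450 and conjugation genes 7 rose (22.6%) and 1 fell (3.23%), against 0.718% and 0.238% of all genes. The unadjusted limma p was under 0.05 for 13 higher and 1 lower (45.2%, against 16.2% of all genes). ADH4, an alcohol and retinol dehydrogenase, read 6.81 and 6.66 in control arrays, against 8.38 and 8.95 in knockdown arrays and rose by 1.93 (SE 0.22, limma adjusted p = 0.0106). SULT1C2 (1.56), the fatty acid hydroxylases CYP4F2 (1.33) and CYP4F3 (0.75), the acetyltransferase NAT2 (1.30), CYP3A4 (0.83) and the steroid sulfotransferase SULT2A1 (0.71) rose too. CYP4F2 and CYP4F3 are close paralogs, as are the CYP3A genes, so their signals may be shared. SULT1C4, a paralog of SULT1C2, went the other way. It stood at 45.8% and 32.3% of the control level in knockdown arrays 1 and 3 and fell by 1.38 (SE 0.18, limma adjusted p = 0.0148), the largest fall of any called gene. The glutathione transferase GSTA1, picked out after its values were seen, had the largest difference of the list, 2.14 (8.57 and 8.44 against 10.38 and 10.89), yet was not called (SE 0.46, limma adjusted p = 0.064).

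Plasma protein genes were called in a few cases. Of 57 measured 4 rose (7.02%, against 0.718% of all genes) and 0 fell, with a median difference of 0.19. The unadjusted limma p was under 0.05 for 15 higher and 4 lower (33.3%, against 16.2% of all genes). In 34 (59.6%) both knockdown arrays lay above both controls and in 11 below, against 29.4% and 23.5% of all genes. TTR, the carrier of thyroxine and retinol-binding protein, read 9.01 and 8.96 in control cells, and 10.30 and 10.83 in knockdown cells, a rise of 1.58 (SE 0.18, limma adjusted p = 0.0105). APOM, an apolipoprotein of high-density lipoprotein, rose by 1.24, the corticosteroid-binding globulin SERPINA6 by 0.78 and APOA4 by 0.76. ALB itself stood at 0.09 (limma adjusted p = 0.74). The acute phase genes SERPINA3 (12.09 and 12.04 against 11.40 and 10.01) and FGB (10.53 and 10.54 against 10.16 and 9.58) lay lower without passing, at -1.36 and -0.67 (limma adjusted p = 0.092 and 0.19).

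Several metabolic genes outside these lists were picked out from the called rises after their values were seen, so they do not describe a class of genes. GPD1, the cytosolic glycerol-3-phosphate dehydrogenase, read 5.83 and 5.80 in control arrays, against 7.28 and 7.67 in knockdown arrays and rose by 1.66 (limma adjusted p = 0.0064). BHMT, which remethylates homocysteine with betaine, rose by 1.65, the thyroid hormone deiodinase DIO1 by 1.43, the pantetheinase VNN1 by 1.66 and the carboxylesterase CES1 by 1.04. LIPA, the lysosomal acid lipase, rose by 1.09 and SMPD1, the acid sphingomyelinase, by 0.89. ACSM2A, a medium-chain acyl-CoA synthetase and the only gene called of 24 in the amino acid and sugar list, rose by 1.99 from control arrays that differed between themselves (4.67 and 5.47 against 6.69 and 7.44). The median of that list was 0.12. Its unadjusted limma p was under 0.05 for 7 higher and 3 lower members (41.7%, against 16.2% of all genes).

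Among 27 liver transcription factors 1 rose and 1 fell (3.70% each, against 0.718% and 0.238% of all genes). The unadjusted limma p was under 0.05 for 12 lower and 3 higher (55.6%, against 16.2% of all genes). In 13 (48.1%) both knockdown arrays lay below both controls and in 5 above, against 23.5% and 29.4% of all genes. MAF, a basic leucine zipper factor, read 4.91 and 5.03 in control cells, and 6.76 and 7.34 in knockdown cells and rose by 2.08 (SE 0.24, limma adjusted p = 0.0105), though only 1 of its 6 probe sets passed. CEBPD, an acute phase factor, read 7.93 and 7.91 against 7.36 and 7.17 and fell by 0.65 (limma adjusted p = 0.036). ERICH4, a gene of little known function, rose by 1.98.

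The interferon list had 2 called genes of 51, both higher (3.92%, against 0.718% of all genes). IFI27 read 5.24 and 5.35 in control arrays, against 6.80 and 7.59 in knockdown arrays and rose by 1.90 (SE 0.23, limma adjusted p = 0.0121), and CMPK2, a mitochondrial nucleotide kinase, rose by 1.49. Other members did not pass, among them ISG15 (0.30), MX1 (0.39) and IFIT1 (0.42), and the median of the list was 0.06. The unadjusted limma p of 12 higher members (23.5%) and 0 lower ones was under 0.05, against 9.13% higher and 7.12% lower of all genes. Of 14 histone genes 3 rose, H4C8 (1.12), H2BC4 (1.08) and H2BC9 (1.04), with a median of 0.50 over the list. Histone genes of 1 class are near-identical in sequence, so which of them rose is uncertain.

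Stress response genes gave few calls. Among 34 chaperones and folding factors of the endoplasmic reticulum DNAJB9 rose by 0.97 (7.59 and 7.66 against 8.41 and 8.77, limma adjusted p = 0.0167), with a list median of 0.18. It was the only call (2.94%, against 0.718% higher of all genes). The unadjusted limma p was under 0.05 for 13 higher and 2 lower (44.1%, against 16.2% of all genes). HSPE1, the mitochondrial co-chaperonin, rose by 0.69, the only call among 19 heat shock genes at their brightest probe sets (5.26%). Of these 19, 9 higher and 0 lower had an unadjusted limma p under 0.05 (47.4%). No gene of 32 NRF2 targets was called by limma at its brightest probe set. There the unadjusted limma p was under 0.05 for 5 higher and 8 lower (40.6%, against 16.2% of all genes). Counting any probe set, 3 of them were called lower.

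At the brightest probe sets falls were fewer than rises, 47 against 142. CXCL5, a chemokine that attracts neutrophils, read 5.60 and 5.54 in control cells, and 4.67 and 3.79 in knockdown cells and fell by 1.34 (SE 0.23, n = 2 per group, limma adjusted p = 0.0378). FAM110C fell by 1.33 from control arrays that differed between themselves (7.60 and 8.10 against 6.93 and 6.09). GNG4, a G protein gamma subunit, read 7.36 and 7.15 against 6.18 and 5.84 and fell by 1.25 (limma adjusted p = 0.013). SLC18A2, the vesicular monoamine transporter, fell by 1.16, the zinc finger gene ZNF711 by 1.19 at its brightest probe set and by 1.57 at its other one, and VMP1, a gene of autophagosome formation, by 1.12. C5AR1, the complement C5a receptor, fell by 1.16 to 3.10 and 2.73, below the lower quartile of the knockdown arrays. The uncharacterised loci LOC151760 (-1.06) and LOC374443 (-1.04) closed the 12 largest falls, the remaining members being FOS, PPP1R15A and SULT1C4.

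Smaller falls included ACTA1, the skeletal muscle actin (6.69 and 6.56 against 5.79 and 5.39, -1.04). Picked out after their values were seen, PPARG, a nuclear receptor of fat storage, fell by 0.62, as did the transcription factor MECOM, and AGPAT2, which makes phosphatidic acid, fell by 0.52.

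Targets of hypoxia-inducible factor lay lower in both knockdown arrays without passing at their brightest probe sets. Of 53 measured genes 0 were called by limma, and 43 had both knockdown arrays below both controls, against 23.5% of all genes. The unadjusted limma p was under 0.05 for 33 lower and 1 higher of the 53, against 7.12% lower and 9.13% higher of all genes. The median difference was -0.42, at -0.28 in knockdown array 1 and -0.53 in knockdown array 3. ANKRD37, whose promoter is shown above, read 8.23 and 8.30 in control arrays, against 7.30 and 5.88 in knockdown arrays (-1.68, SE 0.35, limma adjusted p = 0.06). BHLHE40, a repressor of the circadian and oxygen response, read 10.24 and 10.22 against 9.36 and 8.08 (-1.51, limma adjusted p = 0.0663). VEGFA, the angiogenic growth factor, read 10.97 and 11.06 against 10.44 and 8.78 (-1.41, limma adjusted p = 0.132). All 3 genes were lowest in knockdown array 3, and the gap between the knockdown arrays was larger than that between knockdown array 1 and the controls.

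Enzymes of glucose use were among the lowest. HK2, the inducible hexokinase, read 9.79 and 9.89 in control cells, and 9.25 and 7.79 in knockdown cells (-1.32). PDK1, which turns pyruvate away from the mitochondrion, stood at -1.30, PFKFB4 at -1.13 and the glucose transporter SLC2A3 at -1.11. DDIT4, an inhibitor of the growth kinase mTORC1, was unequal between arrays: it read 12.13 and 12.12 in control arrays, against 11.37 and 9.46 in knockdown arrays (-1.71, SE 0.71, limma adjusted p = 0.291). HIF1A, the oxygen-regulated subunit itself, stood at -0.05 (12.12 and 12.17 against 12.14 and 12.04). Members on the other side of 0 were few, with BHLHE41 at 0.59 the furthest. Counting any probe set, 9 genes of the list had one called lower, among them PDK1 (-1.91), BHLHE40 (-1.58) and VEGFA (-1.56), and 0 had one called higher. Without knockdown array 1 there were 19 called lower at the brightest probe set.

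The amino acid response, the gene programme that ATF4 switches on when amino acids run short, was also lower in knockdown array 3 than in array 1. Of 43 measured genes 1 was called, lower (2.33%, against 0.238% of all genes). In 38 of them (88.4%) both knockdown arrays lay below both controls, against 23.5% of all genes. The median difference was -0.66, at -0.45 in knockdown array 1 and -0.87 in knockdown array 3. The called gene, PPP1R15A, which ends the stress response by dephosphorylating eIF2alpha, read 8.22 and 8.13 in control cells, and 7.38 and 6.58 in knockdown cells and fell to 0.44 of the control level (log2 SE 0.21, limma adjusted p = 0.0378). ATF3, a factor induced by ATF4, read 9.05 and 9.07 against 8.09 and 5.84 (-2.09, SE 0.54, limma adjusted p = 0.1). A dimmer ATF3 probe set, at 7.55 and 7.55 against 6.51 and 5.38, fell by 1.61 (limma adjusted p = 0.0369).

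Its amino acid enzymes and carriers were lower at their brightest probe sets without passing. CTH, which makes cysteine, read 9.37 and 9.36 in control arrays, against 8.62 and 6.81 in knockdown arrays (-1.65, limma adjusted p = 0.104). ASNS, asparagine synthetase, read 10.87 and 10.83 against 10.16 and 8.66 (-1.44, limma adjusted p = 0.0945). SLC7A11, the cystine carrier, stood at -1.54 at its brightest probe set (limma adjusted p = 0.182) and fell by 1.90 at a dimmer one (7.31 and 7.44 against 5.89 and 5.05). SLC7A1, the carrier of cationic amino acids, fell by 1.58 and 0.94 at a pair of dimmer probe sets and stood at -0.94 at the brightest. The hormone genes INHBE (-1.56) and GDF15 (-0.90) and the pseudokinase TRIB3 (-1.02) lay lower without passing. Only ATF5 was on the other side of 0, at 0.29. Without knockdown array 1 there were 22 called lower.

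Immediate early genes, which answer growth signals within minutes and include the AP-1 subunits, had 1 called gene of 41 measured. FOS read 5.11 and 4.97 in control cells, and 4.23 and 3.38 in knockdown cells and fell by 1.24 (SE 0.23, limma adjusted p = 0.0447). In 33 genes both knockdown arrays lay below both controls and in 0 above, against 23.5% and 29.4% of all genes. The median difference was -0.47. EGR1, a zinc finger factor, read 9.45 and 9.42 against 8.81 and 6.88 (-1.59, limma adjusted p = 0.135), and 1 of its dimmer probe sets fell by 1.14. DUSP1, a phosphatase of MAP kinases, stood at 0.44 of the control level (limma adjusted p = 0.0649) with a dimmer probe set that fell by 1.53, and MYC stood at -0.82 (11.78 and 11.75 against 11.27 and 10.63, limma adjusted p = 0.0654). ATF3 is a member of this list too, and VEGFA, STC2 and others sit in more than 1 of these 3 lists, so the lists are not independent.

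Inflammatory targets of NF-kB gave 3 falls among 34 genes, CXCL5, the adhesion molecule ICAM1 (-0.75 at the brightest of 3 probe sets, all called) and the cytokine LIF (-0.56). That is 8.82% lower, against 0.238% of all genes. The unadjusted limma p was under 0.05 for 13 lower and 3 higher members (47.1%, against 16.2% of all genes). CXCL8, at 10.77 and 10.87 against 10.24 and 8.79, was not called (-1.31, limma adjusted p = 0.114), and NFKBIA, the inhibitor of NF-kB, stood at -0.34. HES1, the Notch target, read 9.06 and 9.08 against 8.40 and 7.84 and fell by 0.95 (limma adjusted p = 0.043), the only gene called of 38 in the Notch list. Another probe set of HES1 fell by 0.95 too, and the dimmest, near the floor, stood at 0.09. NOTCH1 stood at -0.16 (limma adjusted p = 0.687). In the Notch list 2.63% were thus called lower. Of its 38 genes 7 lower and 4 higher had an unadjusted limma p under 0.05 (28.9%).

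**Figure D3:**
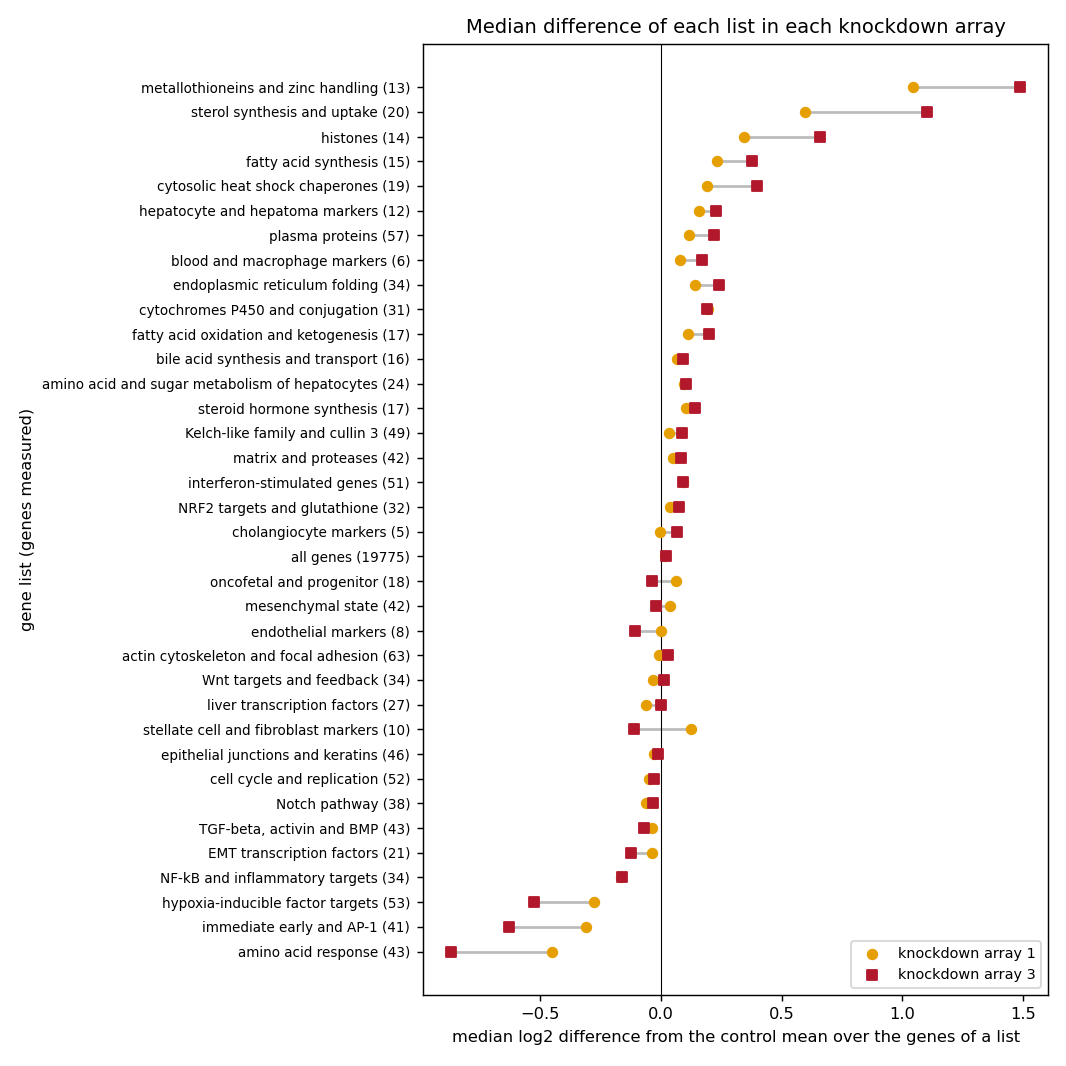
Median log2 difference from the control mean over the measured genes of each list reported, in knockdown array 1 (circles) and knockdown array 3 (squares); the number of genes measured is in parentheses. The metallothionein and sterol lists lie furthest to the right (medians of both arrays together 1.27 and 0.86), the amino acid, immediate early and HIF lists furthest to the left (-0.66, -0.47 and -0.42), and each of the 5 is further from 0 in array 3.

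The knockdown arrays differed in the size of their differences from control. Among the 189 called genes 185 (97.9%) were further from the control mean in knockdown array 3, against 66.4% of all genes. The median difference of genes called higher was 0.75 in array 1 and 1.14 in array 3, and that of genes called lower was -0.67 and -0.95. The 4 exceptions were ZNF780B, LCA5, NOCT and ATP8A1. Over all 19775 genes the difference of pair 1 correlated with that of pair 3 at r = 0.562, a correlation across genes, which are not independent replicates, from pairs that share no array. The SD of the differences was 0.218 in pair 1 and 0.338 in pair 3. Knockdown array 3 is also the one with less KLHL23, and with 2 arrays that relation cannot be tested.

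Gaps between the knockdown arrays were ranked only among genes whose mean over the 8 arrays was above the median of all genes. Those with the largest gap included ATF3, EGR1, DDIT4 and CTH of the stress lists. IGFBP1, the insulin-like growth factor binding protein secreted by liver, read 12.16 and 12.14 in control, 11.88 in knockdown array 1 and 9.42 in knockdown array 3 (-1.50, SE 0.59, limma adjusted p = 0.256). Those 4, IGFBP1, CHST15 (7.86 and 6.08), TCIM (9.18 and 7.46) and TMCC1 (8.72 and 7.04) were the 8 ranked genes lowest in array 3 relative to array 1. In each of the 8, knockdown array 1 lay below both controls and knockdown array 3 far below. In the other direction CDH16, a kidney cadherin, read 5.69 and 5.34 in control, with knockdown array 1 just above them and knockdown array 3 at 6.97 (0.97, limma adjusted p = 0.141). RNF157 (3.83 and 4.74), COLEC11 (7.24 and 8.08) and KLHL13 (4.99 and 5.82) also did not pass, and COLEC11 lay below both controls (7.60 and 7.26) in array 1 and above them in array 3. CAPN3 (1.69), SULT1C2 (1.56), ACSM2A (1.99) and MLLT11 (1.36) differed between the knockdown arrays and were called higher. Some genes outside the ranking had larger gaps in this direction, among them KRT20 (1.38) and MT1M (1.18), against 0.98 for CDH16.

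**Figure D4:**
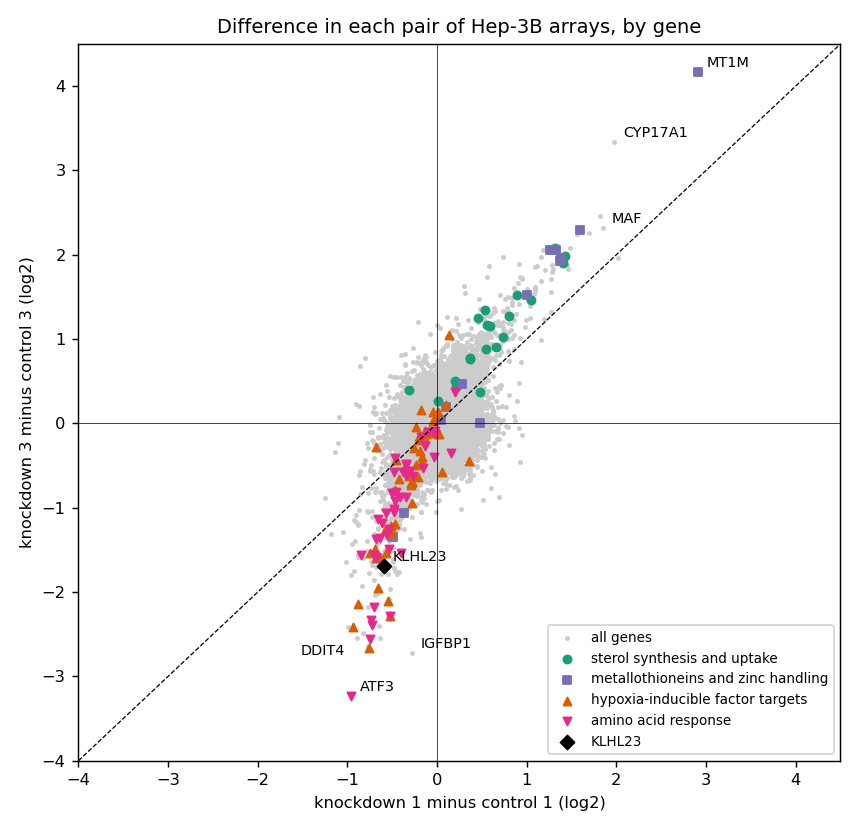
Log2 difference of knockdown array 1 from control array 1 (horizontal) and of knockdown array 3 from control array 3 (vertical) for each of 19775 genes; coloured symbols are the sterol, metallothionein, HIF and amino acid lists, and the dashed line marks equal differences. Most coloured genes far from the centre lie between the vertical axis and the dashed line. Of the labelled genes ATF3, DDIT4 and IGFBP1 lie lowest and MT1M and CYP17A1 highest.

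Calls also depended on which probe set of a gene was read. Of the 19775 brightest probe sets 142 were called higher and 47 lower, while of the 21322 dimmer probe sets of the same genes 77 were called higher (0.361%) and 239 lower (1.12%). The 239 belong to 216 genes. At the brightest probe set of these genes 181 of the 216 differences were below 0, 7 were called lower and 0 called higher. The median difference was -0.27 there and -0.80 at the dimmer probe sets that were called, whose median level was 5.96 against 8.66 for the brightest. No gene had called probe sets in both directions. Counting any probe set, 441 genes were called, 185 higher and 256 lower. When all probe sets of a gene were averaged and p-values adjusted over genes, 91 were called higher and 47 lower.

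Some of these genes are well-known regulators, and they were picked out after their values were seen. A probe set of CRKL, an adaptor of tyrosine kinases, read 7.18 and 7.08 in control arrays, against 5.64 and 5.37 in knockdown arrays and fell by 1.62 (limma adjusted p = 0.0063), while the brightest stood at -0.49 (limma adjusted p = 0.0836). A probe set of USP9X, a deubiquitinase, fell by 1.60 with the brightest at -0.07, and one of CDK6, a cell cycle kinase, fell by 1.39 (5.90 and 6.06 against 4.77 and 4.40) with the brightest at -0.19. For MCL1, a survival factor of the BCL2 family, the values were -1.38 and -0.55. Probe sets of a gene can read different transcript ends or unspliced RNA, and their positions were not analysed here.

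The genes named for EMT showed no calls at their brightest probe sets. CDH1, the epithelial cadherin, read 8.99 and 8.92 in control cells, and 9.22 and 9.46 in knockdown cells (0.39, SE 0.13, limma adjusted p = 0.182). CDH2, the mesenchymal cadherin, read 6.74 and 6.70 against 6.90 and 7.32 (0.39, SE 0.14, limma adjusted p = 0.226). Both cadherins thus lay above their controls in each knockdown array, by amounts that did not pass. VIM, the filament protein of mesenchymal cells, was low in Hep-3B, at 4.70 and 4.88 against 4.71 and 5.18 (0.15, limma adjusted p = 0.744). FN1, fibronectin, stood at -0.04 with all 4 arrays between 13.01 and 13.12, although 2 of its 7 probe sets, both dimmer, were called lower.

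No factor that drives the transition was called. SNAI1 lay between 4.93 and 5.12 on the 4 arrays (-0.07), and SNAI2 and TWIST1 lay below 3 on every array, near the floor. ZEB1 read 7.64 and 7.47 against 7.31 and 7.18 (-0.31, SE 0.21, limma adjusted p = 0.539), and ZEB2 was dim (-0.23). Of 21 measured EMT transcription factors 0 were called by limma (3 at an unadjusted p under 0.05, which is 14.3% against 16.2% of all genes), with a median difference of -0.07, the furthest being FOXQ1 (-0.69, limma adjusted p = 0.0668) and SOX9 (-0.64, limma adjusted p = 0.0526). Of 46 epithelial junction and keratin genes 0 were called by limma at the brightest probe set (10 at an unadjusted p under 0.05, or 21.7%). Their median was -0.03, with KRT20 at 1.22 (limma adjusted p = 0.135) and ELF3 at -0.85 (limma adjusted p = 0.0505) the furthest. Counting any probe set, 2 of the 46 were called lower. Of 42 mesenchymal genes 1 rose, FBN1, which encodes fibrillin (4.59 and 4.46 against 5.20 and 5.38, 0.76, limma adjusted p = 0.0362).

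At the brightest probe sets motility and signalling lists held at most 2 calls each. Counting any probe set, the actin list had 1 gene called higher and 4 lower, and the TGF-beta list had 0 and 2. Among 63 actin and focal adhesion genes CFL2, a cofilin that severs actin filaments, rose at all 3 probe sets, by 0.93 at the brightest, and ACTA1 fell. Among 42 matrix genes MMP7, the protease matrilysin, read 4.42 and 4.45 in control arrays, against 5.34 and 5.86 in knockdown arrays and rose by 1.17 (SE 0.16, limma adjusted p = 0.0186). DKK4, a secreted Wnt inhibitor, rose by 1.42 among 34 Wnt genes. At its brightest probe set no gene of 43 in the TGF-beta, activin and BMP list was called by limma. Nor was any of 52 in the cell cycle list, and the medians were -0.05 and -0.04. Their unadjusted limma p was under 0.05 for 14 (32.6%) and 7 genes (13.5%), against 16.2% of all genes. In the Kelch-like and cullin 3 list of 49 genes KLHL42 rose by 0.63 and KLHDC7B fell by 1.04. CUL3 stood at 0.28 (limma adjusted p = 0.214) and its RING partner RBX1 at 0.42 (limma adjusted p = 0.0859).

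Markers of other liver cells gave 1 call at their brightest probe sets. The mean level of 10 stellate cell and fibroblast markers was 4.76 and 4.84 in control cells, and 4.90 and 4.72 in knockdown cells, with 0 called by limma and 0 at an unadjusted p under 0.05. That of 8 endothelial markers lay between 4.16 and 4.30 over the 4 arrays, and 1 rose, LYVE1, a hyaluronan receptor of lymphatic and sinusoidal endothelium (5.77 and 5.72 against 6.78 and 7.32, 1.30, limma adjusted p = 0.021). The defining endothelial genes CDH5 and KDR were below 2.6 on all 4 arrays, near the floor. At its brightest probe set no gene of 6 blood and macrophage or 5 cholangiocyte markers was called by limma (2 and 1 at an unadjusted p under 0.05). Counting any probe set, 1 blood and macrophage marker was called lower. Of 12 hepatocyte and hepatoma markers TTR rose, and their mean level was 12.5 in both control arrays and 12.7 in both knockdown arrays.

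In Huh7, transduced with the hairpin of the same name, KLHL23 fell by 2.05, and the difference between lines did not pass (limma adjusted p = 0.332). Of the 142 genes that rose in Hep-3B 44 (31.0%) were called higher in Huh7, where 4.46% of all genes were, 5 were called lower and 93 were not called. Of the 47 that fell 12 (25.5%) were called lower in Huh7, where 6.2% of all genes were, 3 were called higher and 32 were not called. The shared genes are 4.99% of the 882 called higher in Huh7 and 0.978% of the 1227 called lower. The lines share no arrays, though the fit shares the spread between them.

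Metallothioneins had high medians in both lines. Their list had a median of 1.27 in Hep-3B and 1.51 in Huh7, and MT1X gave 1.67 and 1.68, MT1G 1.69 and 1.95 and MT2A 1.27 and 1.51. MAF rose in both lines, by 2.08 and 1.79, and TTR by 1.58 and 1.23. PARAIL fell in both, by 0.91 and 1.49, as did the Kelch gene KLHDC7B (1.04 and 2.06), LOC374443 (1.04 and 1.41), HCAR3 (0.72 and 1.25) and PXK (0.60 and 0.94). The amino acid list had medians of -0.66 and -0.80, while the HIF list had -0.42 in Hep-3B and 0.04 in Huh7, and the sterol list 0.86 and 0.09. Those list differences were not tested as lists. By gene, the difference between lines passed for HMGCS1 (limma adjusted p = 0.0314) and NPC1L1 (limma adjusted p = 0.033) but not for MSMO1 (limma adjusted p = 0.0719), IDI1 (limma adjusted p = 0.101), SQLE (limma adjusted p = 0.0851) or ANKRD37 (limma adjusted p = 0.184).

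The difference between the lines was itself called for 510 probe sets (0.933%) and 191 genes (0.966%), and for 29 of the genes that rose and 9 of those that fell in Hep-3B. ADH4 rose by 1.93 in Hep-3B and fell by 1.38 in Huh7 (limma adjusted p = 0.00901 for the difference). CYP17A1, at 2.66 in Hep-3B and -0.24 in Huh7 (limma adjusted p = 0.0211), and STAR, at 1.78 and 0.11 (limma adjusted p = 0.0212), rose in Hep-3B and were not called in Huh7. MMP7 rose in both but further in Huh7, by 3.52 against 1.17 (limma adjusted p = 0.00938). ACTA1 fell by 1.04 in Hep-3B and rose by 1.08 in Huh7 (limma adjusted p = 0.00901), and LIF, NPPB, MCC, ATP8A1, SETD7 and PCOLCE2 were also called in opposite directions. VIM, not called in Hep-3B, rose by 1.58 in Huh7, and that difference between lines passed (limma adjusted p = 0.0351).

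**Figure D5:**
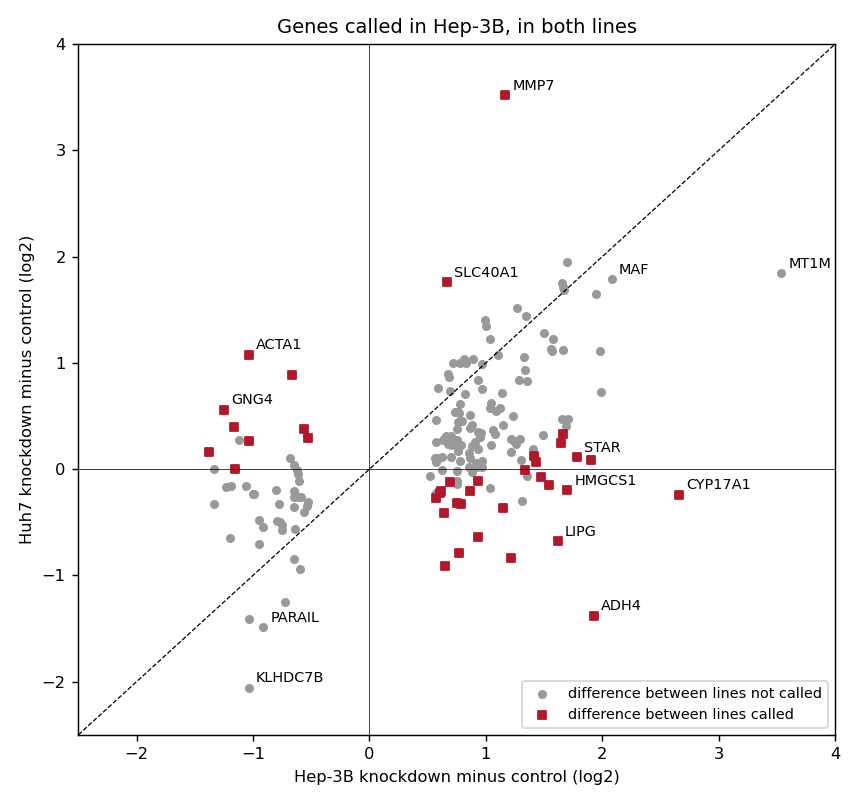
Log2 difference between knockdown and control in Hep-3B (horizontal) and Huh7 (vertical) for the 189 genes called in Hep-3B; red squares are genes whose difference between lines was called, and the dashed line marks equal differences. MAF lies close to the line, ADH4 and CYP17A1 lie below it, and MMP7 and ACTA1 lie above it.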

How the data were processed

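Per the submitters' processing notes, the deposited log2 values are RMA summaries that the authors computed with version 1.2 of Affymetrix Expression Console. RMA equalises the distribution of the arrays, so a change in total RNA per cell cannot be seen, and it shrinks differences of dim probe sets. Names came from the annotation of the platform, which pairs 41097 of 54675 with 1 gene symbol, 1801 with several and 11777 with none; genes of the last 2 kinds were not named. Among the probe sets that name only 1 gene, the brightest on average over the 8 arrays stood for it.

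Groups came from the sample titles. A linear model with a mean per group was fitted to all 8 arrays and all probe sets with limma 3.58.1 in R 4.3.3 (lmFit, eBayes; 4 residual and 5.16 prior degrees of freedom), with Benjamini-Hochberg adjustment over all probe sets. The number of arrays, 2 per group, limits the precision. The fit was tested on simulated data with the same effect and spread in both knockdown arrays. That test therefore does not cover knockdown arrays that differ, as these do. Promoters were RefSeq sequences of GRCh38.p14.

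Text names the 12 largest rises and falls among called genes, and up to 4 called members per list (or the 2 furthest from 0). It also names the 8 genes per direction with the largest gap between knockdown arrays. That ranking took only genes whose mean over the 8 arrays was above the median of all genes. The 5 per direction called alike in Huh7, the 5 largest differences between lines, and 12 genes always given are named too. Other genes are members of the 36 lists, 1 of which is not reported here, or are said to have been picked out after their values were seen. The members and lists were chosen with earlier results of these data known. Alternatives were median centring, quantile normalization again, removal of dim probe sets, Hep-3B alone, an intensity trend with robust eBayes, array weights, the replicate number as a block, removal of probe sets ending in _s_at or _x_at, gene-level adjustment and leaving out each array; list counts without a knockdown array were added after seeing the data.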

Additional observations from a re-analysis of the deposited data

Results flagged for a closer look

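The knockdown difference of Huh7 minus that of Hep-3B passed the limma test for 510 probe sets. The named genes for which it passed are given here as that difference on the log2 scale. It was negative, that is lower in Huh7, for ADH4 (-3.31), CYP17A1 (-2.90), the endothelial lipase LIPG (-2.29), HMGCS1 (-1.90), IFI27 (-1.81), CYP7A1 (-1.69), STAR (-1.67), CYP4F2 (-1.34), DKK4 (-1.30) and CFL2 (-1.05). It was positive for MMP7 (2.35), ACTA1 (2.11), GNG4 (1.81), PROM1 (1.69), SLC18A2 (1.56), SULT1C4 (1.54), VIM (1.43), C5AR1 (1.15), the iron exporter SLC40A1 (1.09) and LIF (0.94). PROM1, a progenitor marker, was not called in Hep-3B itself (5.19 and 5.02 against 4.64 and 4.46, limma adjusted p = 0.252).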

How the results depend on the processing

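With 2 arrays per group the calls rest on few values; where 1 array of a group is left out, the lone array is assumed to vary like the other groups. Against 623 probe sets and 189 genes called, there were 1130 and 412 with dim probe sets removed, 0 and 0 with Hep-3B alone, 1961 and 812 with trend and robust eBayes, and 1715 and 605 with array weights. Without probe sets ending in _s_at or _x_at there were 316 probe sets. Leaving out single arrays gave 0 to 1986 probe sets and 0 to 796 genes. The 510 probe sets called between lines became 856, 1271 and 318 with dim probe sets removed, trend and robust eBayes, and no _s_at or _x_at probe sets, and 2 to 1076 without single arrays. KLHL23, at -1.14, passed with trend and robust eBayes (limma adjusted p = 0.0484) and array weights (limma adjusted p = 0.0371), and ranged from -1.67 to -0.61 without single arrays. Samples share only a number: deviations of same-numbered arrays correlated at -0.035 in Hep-3B and 0.053 in Huh7. With the replicate block 1126 probe sets and 394 genes were called, and KLHL23 passed at -1.14 (limma adjusted p = 0.0345).

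Of the 63 called genes named by the rule, 59 passed after quantile normalization and all 63 after median centring, while 7 passed without knockdown array 3 and 62 without knockdown array 1. Signs turned for HES1, called at its _s_at probe sets, where the remaining probe set stood at 0.087, and for genes not called. Without knockdown array 3 and without knockdown array 1, the values were -0.054 and 0.68 for CD163, -0.19 and 0.66 for COLEC11, 0.0027 and -0.085 for FN1, -0.15 and 0.010 for SNAI1, -0.025 and 0.12 for TWIST1, and -0.084 and 0.39 for VIM. ZEB2 stood at 0.034 over the mean of its probe sets. The cause was not tested.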
